A study of Homo sapiens with 6 samples.

Results

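The genes described here carry a cell from G2 through mitosis. The list holds 54 genes chosen by symbol for their known role: the CDK1 kinase with its cyclins, phosphatases and inhibitory kinases, the Polo and Aurora kinases, the chromosomal passenger complex, the spindle checkpoint, the anaphase-promoting complex (APC/C), securin, separase and cohesin, the mitotic transcription factors, and motor, spindle and kinetochore proteins. All 54 were found among the 58735 genes of the deposited table. Messenger RNA was measured in the established human myeloma line MM.1S after transfection with a non-targeting siRNA (si-NC, the control group, 3 libraries) or an siRNA against PRMT1 (PRMT1 KD, 3 libraries). PRMT1 is the main enzyme that places asymmetric dimethyl marks on arginine residues. In the study's methods the siRNAs were used at 100 nM and the sequenced cells were taken 72 h after transfection. The labels do not say which PRMT1 siRNA was used, and nothing in them says that the 3 libraries of a group came from separate transfections, so the p-values measure the spread between these libraries only.

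Entry into mitosis is driven by CDK1 bound to cyclin A or cyclin B. WEE1 and PKMYT1 hold CDK1 inactive by phosphorylating it and the CDC25 phosphatases remove that brake. Once chromosomes are attached to the spindle, the checkpoint proteins release CDC20, and the APC/C marks securin and cyclin B for degradation, so that separase can cut cohesin and let the sister chromatids part. The mRNAs of many of these genes are low in G1 and peak in G2 and mitosis. In bulk RNA a larger share of cells in G2 or mitosis and more mRNA per cell cannot be told apart.

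The libraries held between 14439217 and 16465026 reads assigned to genes, and each member was backed by between 84 and 10371 reads per library. PRMT1 itself was at 61.7, 62.8 and 58.9 FPKM (fragments per kilobase of exon, scaled to sequencing depth) in the control libraries and at 13.3, 14.0 and 12.5 FPKM in the PRMT1 KD libraries. The targeted mRNA was thus at 21.7% of its control level (log2 fold change -2.13, SE 0.0552, adjusted p = 2.77e-05 by limma, n = 3 per group), and the libraries followed their labels. Markers of a plasma cell were present in every library: IRF4 lay between 115 and 118 FPKM and SDC1 between 45.5 and 54.7 FPKM. Of the 9 plasma cell markers, 8 were tested, CD27 being under the filter on low values. SLAMF7 passed the test and was lower after the knockdown (log2 fold change -0.65, adjusted p = 0.00515 by limma). XBP1 and PRDM1 were lower in every knockdown library and CD38 and MZB1 higher in every one, with adjusted p between 0.133 and 0.243 by limma, while IRF4, SDC1 and TNFRSF17 overlapped. MS4A1, which defines mature B cells, was at 0 in all 6 libraries. The summed markers of myeloid, stromal and erythroid cells stayed at or under 0.218 FPKM in every library. The 6 T and NK cell markers summed to between 39.1 and 43.3 FPKM in the control and between 43.0 and 46.0 FPKM in the PRMT1 KD libraries. Most of that was CD3E (32.1 to 39.0 FPKM), while CD2 was at or under 0.037 FPKM. Whether these markers play a part in the results below was not tested.

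After PRMT1 knockdown the mRNAs of the mitotic programme were, as a group, a little more abundant. The mRNAs of cyclin A2, both B-type cyclins and the proliferation antigen Ki-67 (CCNA2, CCNB1, CCNB2 and MKI67) rose by 19.0% to 23.4%. No member passed the test in the lower direction. The paper reported less growth and proliferation of MM.1S cells after PRMT1 silencing, from cell assays and not from mRNA levels. The fold changes of the 54 members ran from -0.08 to 0.37 on the log2(FPKM + 1) scale, with a median of 0.17, beside a median of 0.01 over all 13585 genes tested. The log2 fold change was above 0 in 43 members and under 0 in 11. Summed over the members, the control libraries held 1450, 1450 and 1475 FPKM and the PRMT1 KD libraries 1610, 1620 and 1712 FPKM, so that the groups did not overlap.

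All 54 members passed the filter on low values (a mean of at least 1 FPKM over the 6 libraries) and were tested with limma, with p-values adjusted over all genes tested. At an adjusted p under 0.05, 4 members were higher and 0 lower, against 1.07% of all tested genes higher and 0.986% lower. At an unadjusted p under 0.05, 21 members were higher and 0 lower, against 10.1% and 9.47% of all tested genes. In 22 members, or 40.7%, every PRMT1 KD library lay above every control library, and in 0 members every one lay below; over all tested genes these shares were 13.6% and 12.3%. In the other 32 members the groups overlapped. With voom on the recovered reads, 12 members were called higher and 0 lower, against 3.00% and 3.55% of all tested genes. An exact permutation test of 3 against 3 libraries cannot go below p = 0.1. The 4 adjusted calls did not hold with any 1 of the 6 libraries left out: the number of members called was then 0 in each case. Of all 13585 genes tested, these fits called 4 to 44 higher and 9 to 50 lower, against 145 and 134 in the main fit. The 4 calls were also lost when the libraries were scaled by their medians (82 genes higher and 139 lower over all).

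**Figure D1:**
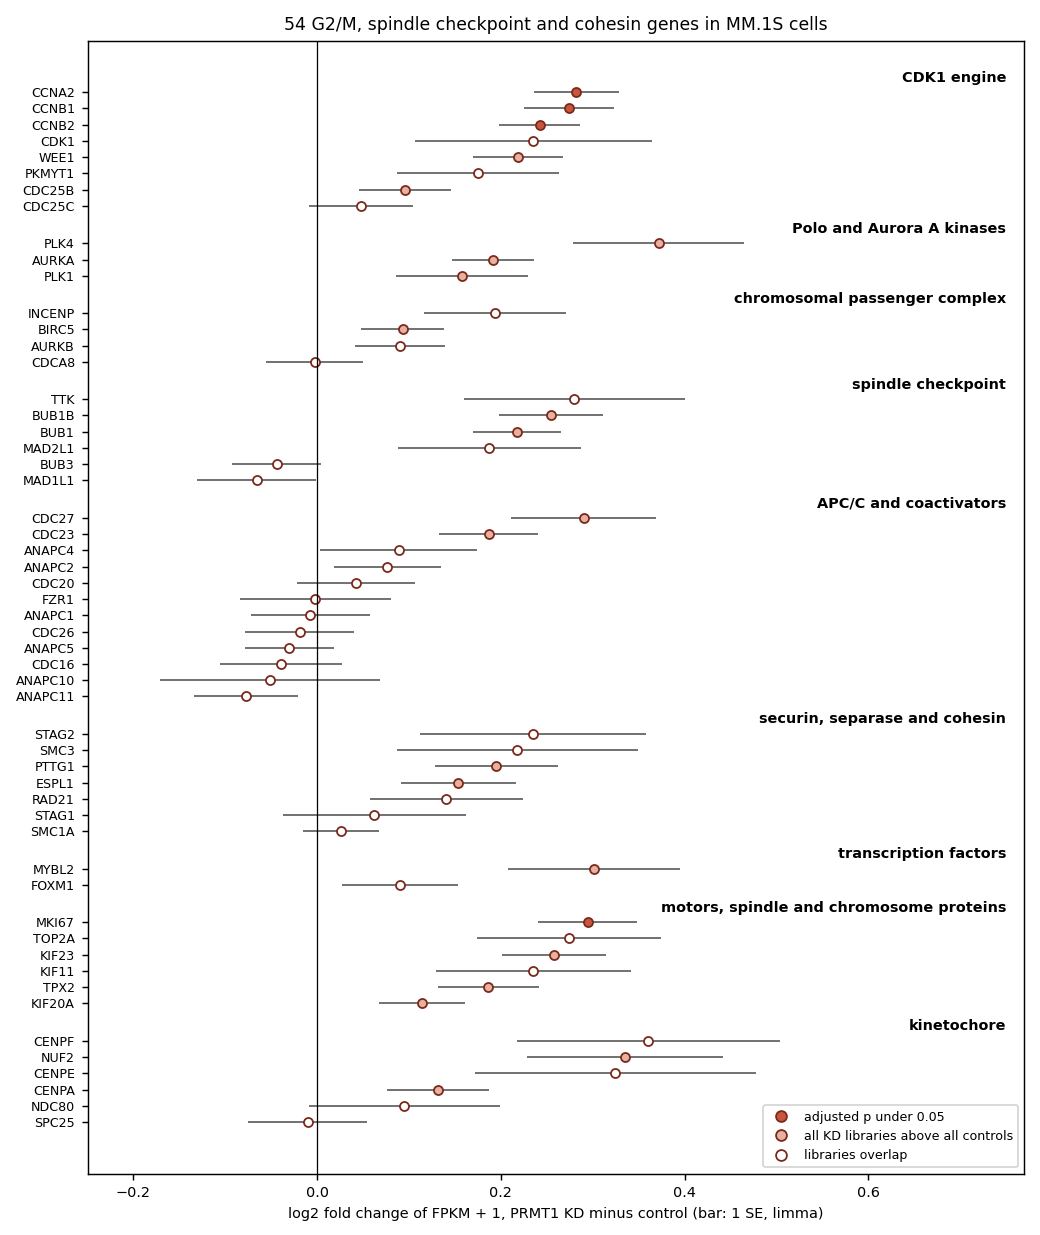
Log2 fold change of FPKM + 1 (x axis, PRMT1 KD minus control) of each of the 54 members (y axis), ordered within its group, with bars of 1 SE from limma. Filled dark points are the 4 members with an adjusted p under 0.05, filled light points the other members whose PRMT1 KD libraries all lay above the controls, and open points the 32 members whose libraries overlapped; most points lie right of 0, and the APC/C subunits sit around it.

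The genes that switch CDK1 on and off gave 3 of the 4 calls. All 8 had a log2 fold change above 0 (median 0.23). CCNA2, the cyclin that first partners CDK1 (ENSG00000145386, chr4:121816444-121823933, hg38, minus strand), was at 48.1, 50.04 and 50.5 FPKM in the control and at 59.2, 58.9 and 63.2 FPKM in the PRMT1 KD libraries. The groups were well apart, and the 2 sets differed by 0.28 on the log2 scale (SE 0.0463, adjusted p = 0.0404 by limma). CCNB1, the major mitotic cyclin (ENSG00000134057, chr5:69167010-69178245, plus strand), was at 74.0, 77.5 and 75.5 FPKM in the control and at 88.4, 89.9 and 97.1 FPKM after knockdown. Its lowest knockdown library stood above its highest control (log2 fold change 0.27, SE 0.0491, adjusted p = 0.0477 by limma). CCNB2, the second B-type cyclin (ENSG00000157456, chr15:59105078-59125045, plus strand), was less abundant, at 26.6, 26.0 and 27.1 against 30.6, 31.9 and 32.4 FPKM. Here too the groups were apart (log2 fold change 0.24, SE 0.0440, adjusted p = 0.0484 by limma). In the annotation EXOSC9 overlaps CCNA2 on the other strand and AC092757.2 overlaps CCNB2 on the same strand, so a part of their reads may belong to the neighbour. With 1 library left out, the adjusted p (limma) ran from 0.0757 to 0.173 for CCNA2, from 0.0853 to 0.190 for CCNB1 and from 0.0783 to 0.188 for CCNB2, and the fold change stayed above 0.

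The promoters of the 4 genes that rose are printed here to show where 2 motifs known from mitotic genes stand in them. CDC20, which holds both motifs and whose libraries overlapped, is printed beside them and was chosen after its values were seen. Each is the 150 bases just before the RefSeq transcription start (GRCh38.p14), written 5′ to 3′ on the strand of the gene. Capitals mark CCAAT or its reverse complement ATTGG, the box bound by NF-Y, and TTTGAA or its reverse complement TTCAAA, the core of the cell cycle genes homology region (CHR). In MKI67 the second TTTGAA and an ATTGG share a base.
CCNA2 (chr4:121823884-121824033, minus strand): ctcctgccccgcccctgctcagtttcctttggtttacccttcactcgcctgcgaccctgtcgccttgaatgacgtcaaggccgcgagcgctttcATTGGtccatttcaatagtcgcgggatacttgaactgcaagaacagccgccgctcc
CCNB1 (chr5:69167000-69167149, plus strand): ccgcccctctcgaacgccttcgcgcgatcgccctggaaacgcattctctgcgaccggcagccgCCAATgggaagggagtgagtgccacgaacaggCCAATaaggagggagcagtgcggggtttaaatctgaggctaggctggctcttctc
CCNB2 (chr15:59104996-59105145, plus strand): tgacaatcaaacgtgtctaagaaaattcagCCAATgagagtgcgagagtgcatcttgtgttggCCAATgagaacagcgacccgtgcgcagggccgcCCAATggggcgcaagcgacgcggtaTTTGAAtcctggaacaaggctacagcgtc
MKI67 (chr10:128126424-128126573, minus strand): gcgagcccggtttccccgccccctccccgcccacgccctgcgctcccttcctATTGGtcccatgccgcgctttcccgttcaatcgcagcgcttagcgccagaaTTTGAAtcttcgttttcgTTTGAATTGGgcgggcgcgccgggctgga
CDC20 (chr1:43358831-43358980, plus strand): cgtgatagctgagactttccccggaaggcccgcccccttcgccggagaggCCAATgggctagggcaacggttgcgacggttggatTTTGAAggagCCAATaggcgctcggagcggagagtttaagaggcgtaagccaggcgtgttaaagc

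The 3 cyclin promoters carried a CCAAT box at nearly the same place, starting 56 bases before the start in CCNA2, 55 in CCNB1 and 54 in CCNB2. CCNB1 and CCNB2 both had a further box 87 bases before the start, and CCNB2 another at 120. The hexamer TTTGAA was found 29 bases before the start in both CCNB2 and MKI67, with a further one at 47 in MKI67. Neither it nor its reverse complement was among the letters of this window in CCNA2 and CCNB1. Only this exact hexamer was sought, so its absence there does not show that a CHR of another form is missing. In CDC20 a CCAAT box lay 55 bases before the start and a TTTGAA 65.

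Of the brakes on CDK1, WEE1 was at 11.4, 11.7 and 11.1 FPKM in the control and at 13.0, 13.7 and 13.6 FPKM after knockdown. All 3 knockdown values were the higher ones (log2 fold change 0.22, adjusted p = 0.0755 by limma). CDC25B, a phosphatase that removes the brake, was at 55.0, 55.8 and 50.7 against 58.2, 58.5 and 56.0 FPKM. The gap between its groups was small, and the fold change of 0.10 had an adjusted p of 0.349 by limma. It was 0.05 without control replicate 3, and 0.14 with the trend on GC content taken out of each library (adjusted p = 0.0460 by limma). Under that correction WEE1 was also at 0.14, but with an adjusted p of 0.266 by limma. CDK1 itself overlapped between the groups, at 26.3, 24.8 and 32.8 against 30.7, 30.1 and 38.5 FPKM (log2 fold change 0.24, SE 0.129), with replicate 3 the highest library of each group. PKMYT1, the second inhibitory kinase, and CDC25C overlapped as well, with log2 fold changes of 0.17 and 0.05.

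**Figure D2:**
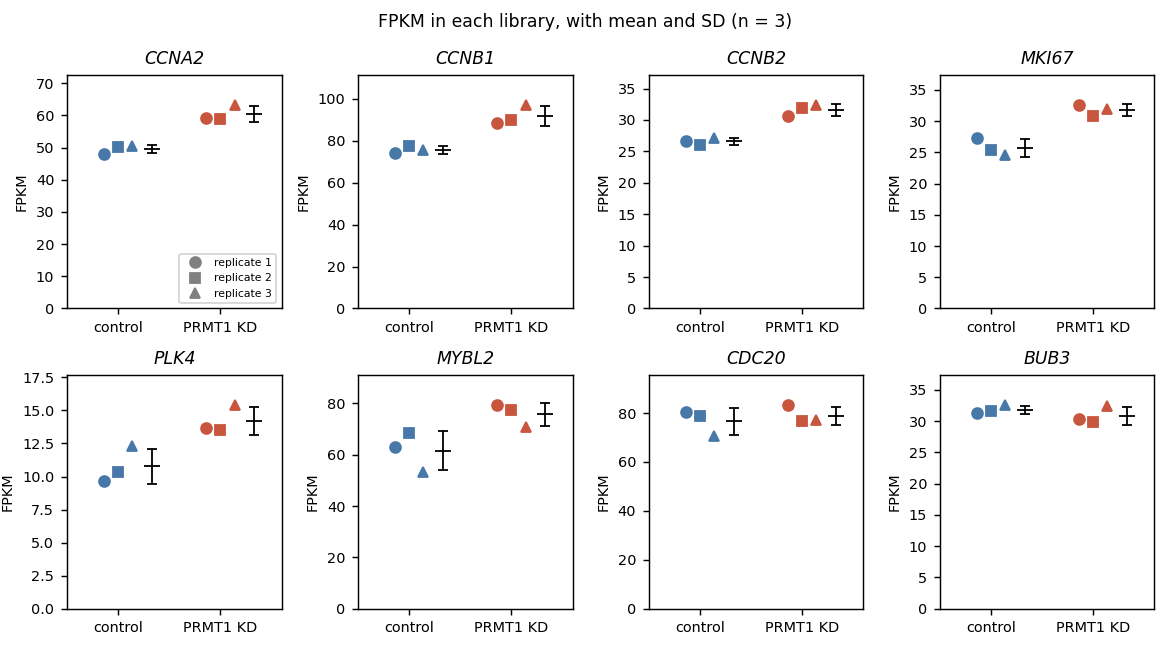
FPKM (y axis, from 0) of 8 members in each control and PRMT1 KD library (x axis), with marker shapes for replicates 1 to 3 and the mean and SD (n = 3) beside them. The knockdown libraries of CCNA2, CCNB1, CCNB2, MKI67, PLK4 and MYBL2 all stand above the controls, while those of CDC20 and BUB3 overlap them.

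The 3 Polo and Aurora A genes were each higher in every knockdown library, with none past the adjusted threshold. PLK4, the kinase that starts centriole duplication, had the largest fold change of the 54 members: it was at 9.69, 10.3 and 12.3 FPKM in the control and at 13.7, 13.5 and 15.4 FPKM in the PRMT1 KD libraries (log2 fold change 0.37, SE 0.0930, adjusted p = 0.0973 by limma). PLK1, which activates CDC25 and acts at centrosomes and kinetochores, was at 19.1, 19.0 and 16.3 against 20.5, 21.0 and 19.4 FPKM. Its groups were parted by 0.16 on the log2 scale (adjusted p = 0.285 by limma), and by 0.09 without control replicate 3. AURKA, the kinase of spindle poles, was at 21.6, 22.2 and 22.9 against 26.0, 24.9 and 25.5 FPKM (log2 fold change 0.19, adjusted p = 0.0847 by limma). Among these, AURKA showed the tightest groups. Its annotated pseudogenes held at most 6 reads in a library.

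In the chromosomal passenger complex, which corrects faulty attachments and steers cytokinesis, only BIRC5 (survivin) kept its groups apart, at 43.1, 42.7 and 41.7 FPKM in the control and 46.3, 46.6 and 43.5 FPKM after knockdown (log2 fold change 0.09, adjusted p = 0.311 by limma). The kinase AURKB and the scaffold INCENP overlapped, with log2 fold changes of 0.09 and 0.19. CDCA8 (borealin) had practically the same mean in both groups, 42.8 ± 2.27 and 42.7 ± 1.43 FPKM (SD, n = 3).

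The spindle checkpoint genes divided in their values. BUB1, the kinase that recruits checkpoint proteins to kinetochores, was at 45.0, 45.8 and 48.3 FPKM in the control and at 53.1, 52.9 and 56.2 FPKM in the knockdown libraries. Every knockdown library was above every control, and BUB1 was the closest to the threshold of the members that missed it (log2 fold change 0.22, adjusted p = 0.0727 by limma). BUB1B (BubR1), part of the complex that holds CDC20, was at 22.4, 23.2 and 23.3 against 25.8, 27.8 and 29.3 FPKM (log2 fold change 0.25, adjusted p = 0.0746 by limma). BUB1B overlaps the annotated readthrough gene BUB1B-PAK6 on the same strand, so part of its reads is uncertain. TTK (MPS1) and MAD2L1 had log2 fold changes of 0.28 and 0.19 with overlapping groups. BUB3, the partner of BUB1 and BUB1B, was at 31.4, 31.6 and 32.5 against 30.3, 29.8 and 32.5 FPKM, and MAD1L1 had a log2 fold change of -0.07; both overlapped.

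The APC/C and its coactivators stood closest to no difference, with 5 of 12 members above 0, 7 under 0 and a median log2 fold change of 0.00. Summed over the 12, the controls held between 219 and 234 FPKM and the knockdown libraries between 234 and 238 FPKM. CDC27, a subunit that helps to dock the coactivators, was at 15.2, 14.9 and 16.8 FPKM in the control and at 18.0, 18.7 and 21.4 FPKM after knockdown. Its fold change of 0.29 was the highest of the complex (adjusted p = 0.113 by limma). CDC23, a neighbouring subunit, was at 16.2, 16.8 and 15.9 against 17.6, 19.2 and 19.3 FPKM (log2 fold change 0.19, adjusted p = 0.125 by limma). The end of CDC23 overlaps that of KIF20A on the other strand, and the strand setting of the counting is not given in the sources used here. The other 10 overlapped between the groups. CDC20, the coactivator that the checkpoint restrains, was abundant and level, at 80.6, 79.0 and 70.4 against 83.1, 76.6 and 77.0 FPKM (log2 fold change 0.04, SE 0.0640). FZR1 (CDH1), the coactivator of late mitosis and G1, averaged 10.6 FPKM in both groups. ANAPC10 was the least expressed of the 54 members, at a mean of 1.48 FPKM, and its values of 84 to 126 reads per library leave a wide error (log2 fold change -0.05, SE 0.119). The largest negative fold change of all members was that of ANAPC11, the RING subunit, at -0.08 (SE 0.0567).

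**Figure D3:**
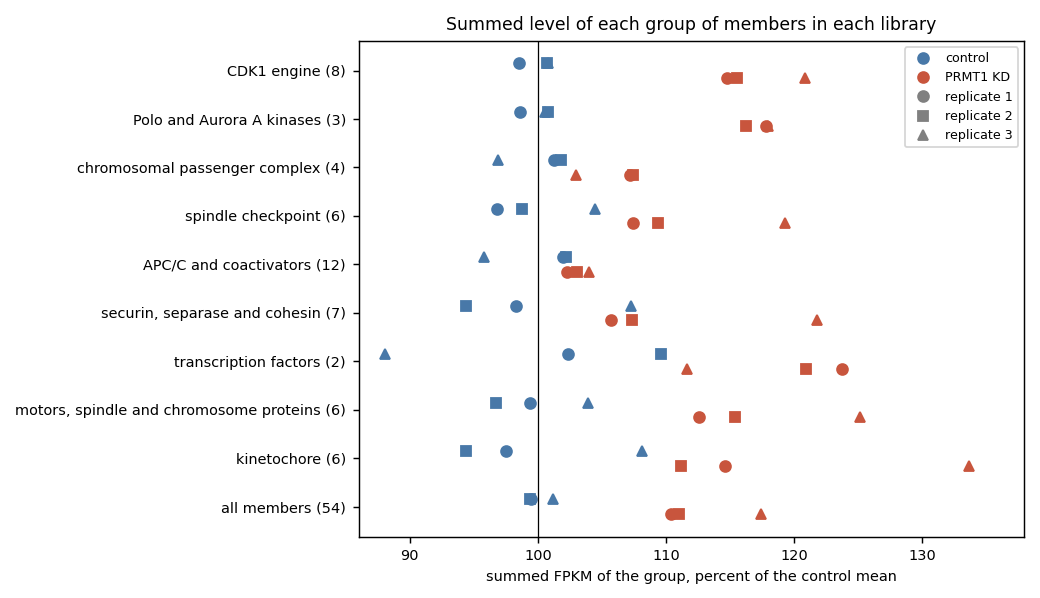
Summed FPKM of each group of members (y axis, number of members in parentheses) in each library, as a percent of the control mean (x axis), with marker shapes for replicates 1 to 3. The knockdown libraries of the CDK1 genes stand at 115% to 121% and those of the APC/C at 102% to 104%; replicate 3 is the highest knockdown library in most groups.

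Securin, separase and the cohesin ring all had fold changes above 0 (7 of 7, median 0.15), with none past the adjusted threshold. PTTG1 (securin), the inhibitor of separase, was at 29.5, 28.4 and 29.9 FPKM in the control and at 30.5, 34.6 and 36.0 FPKM in the knockdown libraries. Its lowest knockdown library stood just above the highest control (log2 fold change 0.19, adjusted p = 0.174 by limma). ESPL1 (separase) was at 13.9, 14.2 and 12.6 against 15.6, 15.6 and 14.4 FPKM (log2 fold change 0.15, adjusted p = 0.240 by limma). The ring proteins overlapped between the groups. RAD21, the subunit that separase cuts, was the most abundant of the 54 members, at 89.0, 83.2 and 97.9 FPKM in the control and at 93.7, 94.6 and 110 FPKM after knockdown (log2 fold change 0.14, SE 0.0832). SMC3, STAG2 and STAG1 had log2 fold changes of 0.22, 0.24 and 0.06, and replicate 3 was the highest library in both groups for each. SMC1A, the partner of SMC3, averaged 23.9 ± 0.424 and 24.4 ± 0.332 FPKM (SD, n = 3), a fold change of 0.03.

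Both transcription factors of the late cell cycle were expressed. MYBL2 (B-Myb), which with the MuvB complex activates mitotic promoters, was at 63.0, 68.4 and 53.3 FPKM in the control and at 79.2, 77.3 and 70.8 FPKM in the PRMT1 KD libraries. Its control libraries spread widely, and the fold change of 0.30 had an adjusted p of 0.144 by limma. FOXM1, which follows MYBL2 at the same promoters, overlapped between the groups, at 22.5, 23.2 and 20.2 against 24.1, 23.7 and 22.4 FPKM (log2 fold change 0.09).

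Motors and chromosome proteins had the highest median of the groups, 0.25, and 6 of 6 fold changes above 0. MKI67 (Ki-67), the coat protein of mitotic chromosomes (ENSG00000148773, chr10:128096659-128126385, minus strand), was at 27.3, 25.4 and 24.5 FPKM in the control and at 32.6, 30.8 and 31.9 FPKM after knockdown. It had the largest change of the 4 genes that rose (log2 fold change 0.29, SE 0.0538, adjusted p = 0.0484 by limma). With 1 library left out its adjusted p ran from 0.0886 to 0.167 (limma). KIF23, a motor of the central spindle in cytokinesis, was at 14.1, 14.3 and 13.7 against 15.8, 17.3 and 17.8 FPKM (log2 fold change 0.26, adjusted p = 0.0734 by limma). TPX2, the spindle assembly factor that activates AURKA, was at 82.1, 82.9 and 78.4 against 86.1, 96.4 and 95.1 FPKM (log2 fold change 0.19, adjusted p = 0.133 by limma). In all of these the lowest knockdown library stood above the highest control. KIF20A, a second cytokinesis motor, was at 17.7, 18.5 and 18.4 against 19.4, 19.4 and 20.5 FPKM (log2 fold change 0.11, adjusted p = 0.243 by limma). TOP2A, which untangles the sister chromatids, and KIF11, the motor that separates the spindle poles, had log2 fold changes of 0.27 and 0.24 and overlapped. For both, replicate 3 was the highest library of each group.

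At the kinetochore, NUF2, a subunit of the NDC80 complex that grips microtubules, was at 46.3, 44.3 and 55.0 FPKM in the control and at 57.1, 57.5 and 69.8 FPKM in the knockdown libraries. The lowest knockdown and highest control values were close, and the fold change of 0.33 had an adjusted p of 0.149 by limma. CENPA, the histone that marks centromeres, was at 17.1, 18.7 and 17.5 against 20.5, 19.2 and 18.9 FPKM (log2 fold change 0.13, adjusted p = 0.257 by limma). CENPA overlaps SLC35F6 on the same strand and NUF2 overlaps RGS5 on the other. CENPF and CENPE had fold changes of 0.36 and 0.32 but overlapped, with replicate 3 again the highest in both groups. The members of the NDC80 complex did not share a value: SPC25 had a fold change of -0.01 and NDC80 one of 0.09, against 0.33 for NUF2, with SEs between 0.0648 and 0.106.

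Promoter sequences were matched in RefSeq for 45 of the 54 members. TTTGAA or TTCAAA was present in 22 of them (48.9%) and in 15.2% of all 35116 promoters of 300 bases in the table (250 before to 50 after the start), which include those of non-coding genes. CCAAT or ATTGG was present in 28 (62.2%) and in 34.6% of all promoters, and both motifs in 15 (33.3%) and 5.90%. Only exact matches were counted, so other forms of either motif were left out. These shares describe the list, which was chosen by function. Among the members whose knockdown libraries all lay above the controls, TTTGAA was in 9 of 18 promoters (50%) and CCAAT in 13 (72.2%), and among those whose groups overlapped, in 13 of 27 (48.1%) and in 15 (55.6%). Of 26 TTTGAA matches, 13 began within 60 bases before the start, and the median CCAAT match began 76 bases before it. Both motifs stood together in 1 of 12 APC/C promoters and in 4 of 5 promoters of the motor and spindle genes.

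**Figure D4:**
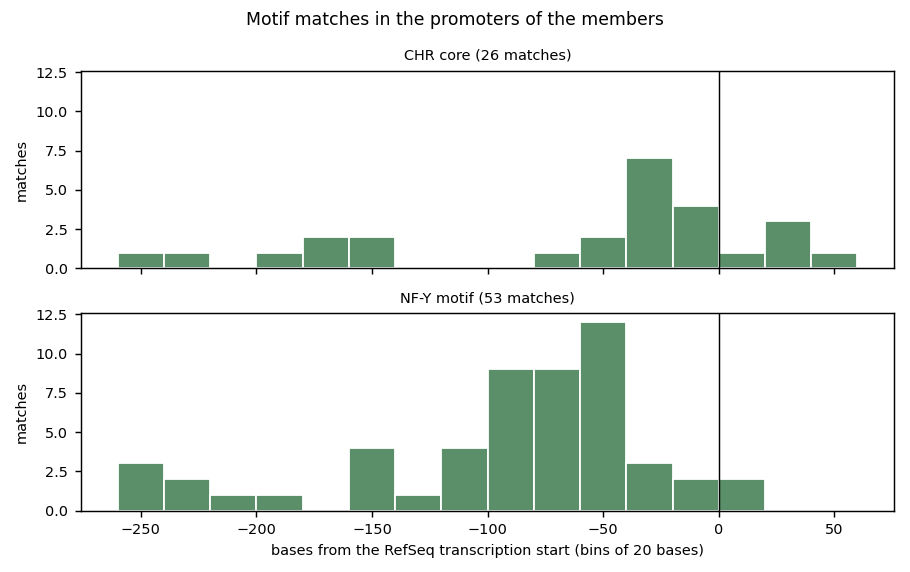
Number of motif matches (y axis) in 45 promoters of the members by distance from the RefSeq transcription start (x axis, bins of 20 bases), for the CHR core (26 matches, upper plot) and the NF-Y motif (53 matches, lower plot), both strands. The CHR matches gather just before the start and the NF-Y matches further upstream.

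One pattern among the libraries ran through the members. In 23 of the 54, replicate 3 was the highest library of both groups (42.6%, against 20.3% of all tested genes). Their transcripts were AT-rich: the median GC content of the 23 was 39.4%, and that of the other 31 members 48.4%. Over the 54 members, the GC content and the deviation of replicate 3 from replicates 1 and 2 had a Spearman rho of -0.78 in the control and -0.87 in the PRMT1 KD libraries. Over all tested genes with a GC value, rho was -0.45 and -0.52. Members of a library share its depth and its base composition, so these are descriptions. The GC content and the fold change had a rho of -0.37 over the members and of -0.26 over all tested genes. With the trend on GC taken out of every library (an analysis chosen after the data were seen), the median of the members was 0.15, 45 fold changes were above 0, and limma called 14 members, all higher, CCNA2, CCNB1, CCNB2 and MKI67 among them; of all tested genes it then called 3.83% higher and 3.39% lower. Without replicate 3 of both groups (also chosen afterwards), the median was 0.14 and 0 members were called by limma. Of all tested genes, that fit called 12 higher and 13 lower. Both knockdown libraries then lay above both controls in 38 members (70.4%, against 28.9% of all tested genes) and below them in 7 (13.0%, against 26.9%).

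**Figure D5:**
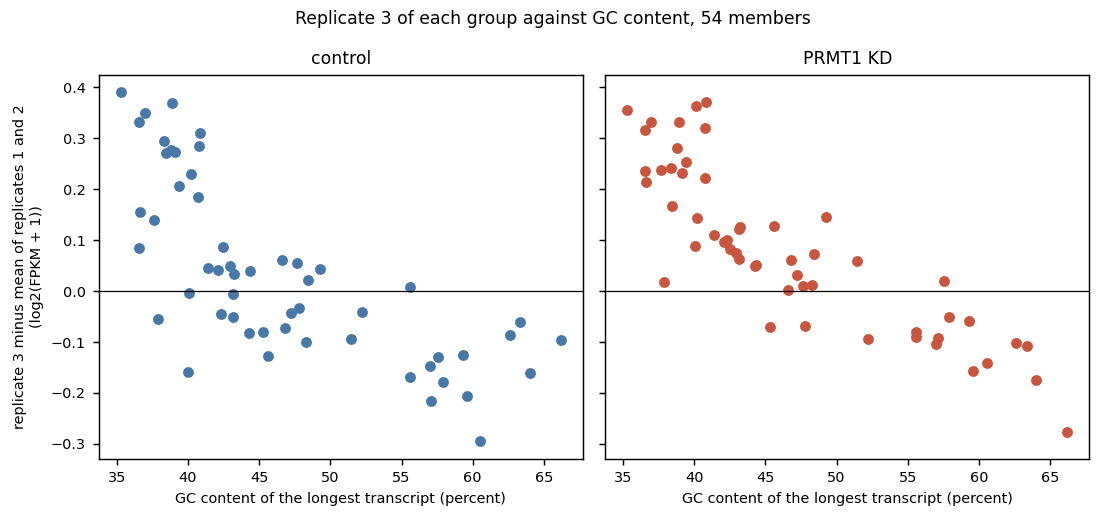
Deviation of replicate 3 from the mean of replicates 1 and 2 on the log2(FPKM + 1) scale (y axis) against the GC content of the longest transcript (x axis, percent) for the 54 members, with control libraries left and PRMT1 KD libraries right. Points fall from upper left to lower right in both plots (rho -0.78 and -0.87).

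Ratios of partner genes within a library do not depend on the scaling between libraries, and 8 were compared. In 7 of them the groups overlapped. CDC25B over WEE1, the phosphatase against the kinase that it opposes, was 4.82, 4.77 and 4.57 in the control and 4.47, 4.26 and 4.13 in the PRMT1 KD libraries. All 3 knockdown ratios were the lower ones, by 0.14 on the log2 scale (exact permutation p = 0.1, the smallest that 3 against 3 allows; 0.48 adjusted over the 8 ratios). The transcripts differ in GC content, 59.3% in CDC25B and 37.9% in WEE1, and with the GC trend taken out the fold changes of both genes were 0.14. CCNB1 over CCNB2 was 2.85 ± 0.114 in the control and 2.90 ± 0.0906 after knockdown (SD, n = 3), and CDC20 over FZR1 was 7.26 ± 0.107 and 7.52 ± 0.838.

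A wider set of 98 genes of the same pathway gave a like picture as a whole, though not in every list. Of these, 95 passed the filter (HDAC8, CDC14B and PRC1 did not), 77 had a fold change above 0 and the median was 0.14. The adjusted threshold of limma was passed by 2 genes, both kinetochore genes and both higher, and by 0 in the other direction (31 higher and 2 lower at an unadjusted p under 0.05; 13 higher and 1 lower with voom). The shares of all tested genes were 1.07% higher at the adjusted threshold, 10.1% higher and 9.47% lower at the unadjusted one, and 3.00% and 3.55% with voom. ZW10, which brings dynein to kinetochores, was at 15.9, 16.8 and 15.5 FPKM in the control and at 19.5, 20.5 and 22.3 FPKM after knockdown (log2 fold change 0.35, SE 0.0627, adjusted p = 0.0475 by limma). SKA2, of the complex that couples kinetochores to microtubules, was at 28.4, 28.1 and 28.6 against 33.0, 33.8 and 36.3 FPKM (log2 fold change 0.27, SE 0.0489, adjusted p = 0.0487 by limma). Neither call held with a library left out (adjusted p up to 0.181 and 0.187 by limma). Both were also lost with the replicate number as a block (adjusted p = 0.0617 and 0.0577 by limma). The 8 condensin genes, which compact chromosomes, all had fold changes above 0 (median 0.20), as did 17 of 18 further spindle and cytokinesis genes (median 0.27). The other lists had lower medians: 0.12 for cohesin loading, release and protection, 0.10 for the further kinetochore genes and 0.09 for MuvB and DREAM. For the other CDK1 regulators and the further APC/C genes the medians were 0.07 and 0.01. Under 0 were 6 of 27 further kinetochore genes and 4 of 10 MuvB and DREAM genes. In 30 of the 95 the knockdown libraries all stood above the controls, and in 3 all below (13.6% and 12.3% of all tested genes). These 3 were the APC/C subunit ANAPC13 and, of the E2F family and its partners, E2F4 and TFDP1 (named after their values were seen). TFDP2, the other DP partner listed, was higher in every knockdown library (log2 fold change 0.14, adjusted p = 0.408 by limma). TFDP1 was at 67.5, 71.1 and 64.4 against 59.6, 59.2 and 58.1 FPKM (log2 fold change -0.19, adjusted p = 0.0926 by limma). RBL2 (p130), the pocket protein of the DREAM repressor, was at 19.1, 19.5 and 19.1 against 22.9, 22.1 and 23.6 FPKM (log2 fold change 0.24, adjusted p = 0.0514 by limma), also named after its values were seen. The 4 further APC/C subunits (ANAPC7, ANAPC13, ANAPC15 and ANAPC16) had fold changes under 0, from -0.14 to -0.04, and the E2 enzymes UBE2C, UBE2S and UBE2D1 and the inhibitor FBXO5 had fold changes above 0, from 0.05 to 0.22. None of these 8 passed the adjusted threshold.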

How the data were processed

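RNA-seq of 3 control and 3 PRMT1 KD libraries was used. The authors deposited 1 table of FPKM values. Per the submitters' processing notes, featureCounts 1.5.0-p3 and hg38 were used; the strand setting and the aligner's settings are not given in the sources used here. Multiplying the deposited FPKM values by gene length and by a depth divisor of each library gave whole reads for 100% of values (tolerance 0.01). The total depths of these reads are given in the text. The divisors showed that the authors' values already included a median-of-ratios scaling. All 54 members had the same coordinates in GENCODE 29. No column was without a sample (0 left out).

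Values were tested as log2(FPKM + 1) with limma 3.58.1 (R 4.3.3, trend, two-sided), keeping genes that averaged 1 FPKM or more across the libraries, with Benjamini-Hochberg adjustment over all genes tested and a threshold of 0.05. Fold changes on this scale understate the change of low genes. Exact permutation tests used scipy 1.17.1. GC content was that of the longest GENCODE 29 transcript. The fit was tested on simulated data; the simulated spread and the pass mark were revised after the first versions missed their mark, to match the spread of these libraries. The members, lists and tests were chosen with earlier results of these data known. Named with values were members with an adjusted p under 0.05, those whose groups did not overlap, the highest and the lowest expressed, PRMT1, and other pathway genes with an adjusted p under 0.05; other genes given with values were chosen after their values were seen. Alternatives were another pseudocount (0.1), no filter, a mean of at least 5, median scaling, TPM, no trend, voom on the recovered reads, a replicate block and each library left out. Added after seeing the data were a GC correction and leaving out both replicate 3 libraries.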

Additional observations from a re-analysis of the deposited data

How the results depend on the processing

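The direction of the members' median held in every alternative computed (0.17 in the main analysis; 0.13 to 0.17 with each library left out, lowest without PRMT1 KD replicate 3), and PRMT1 stayed lower and past the threshold in all 16 settings. The number of members called did not hold: beside 4, it was 0 without the filter, 0 with median scaling, 0 without the trend, 0 to 0 with each library left out and 0 without both replicate 3 libraries, but 8 with a mean FPKM of at least 5, 7 with TPM, 12 with voom on reads, 14 with the GC correction and 21 at an unadjusted p under 0.05. All calls were in the higher direction. For the other pathway genes, beside 2, it was 1 with a pseudocount of 0.1, 0 without the filter, 0 with median scaling, 0 without the trend, 0 to 0 with each library left out, 0 without both replicate 3 libraries, 7 with a mean of at least 5, 7 with TPM, 14 with voom, 16 with the GC correction and 33 unadjusted. Over all genes, 145 were called higher and 134 lower. With median scaling this was 82 and 139, with TPM 222 and 133, without the trend 15 and 28, and without the filter 15 and 20. It was 252 and 221 with a mean of at least 5, 407 and 482 with voom, and 520 and 460 with the GC correction. With 1 library left out it was 4 to 44 higher and 9 to 50 lower, and without both replicate 3 libraries 12 and 13. No scaling moved the median of all genes by over 0.1. The fewer genes tested or samples kept are part of the filter and left-out settings; otherwise the cause was not tested.

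Over all tested genes, libraries of the same number correlated at 0.02, 0.06 and 0.10 in their deviations, against -0.08 to 0.02 between different numbers. For replicate 3, the deviations in the control and in the PRMT1 KD group had a Spearman rho of 0.81 over the members. That rho was 0.31 over all tested genes. Each library correlated best with its own number, a hint from the data and not from the design; the numbers were not taken as pairs because not every value was over 0.1. With the replicate block, 4 members were called (CCNA2, TOP2A, NUF2 and CENPF). CCNB1, CCNB2 and MKI67 missed the threshold (adjusted p = 0.0581, 0.0577 and 0.0532 by limma). Of the other pathway genes 1 was called, which was neither ZW10 nor SKA2 (adjusted p = 0.0617 and 0.0577 by limma). Over all genes, 105 were called higher and 99 lower with the block.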
